A study of Mus musculus with 12 samples.

Results

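Rcan1, the calcineurin catalytic subunit genes Ppp3ca and Ppp3cb, the transcription factor genes Nfatc1, Nfatc2, Nfatc3 and Nfatc4, and the MEF2 genes Mef2a, Mef2c and Mef2d were followed through RNA-seq of mouse left ventricle. These 10 genes were taken by symbol from the 55401 rows of the gene count table. All 10 passed the filter on low counts and so stand among the 17699 genes tested. The study placed mice under pressure overload by transverse aortic constriction (TAC), in which the aortic arch is tied down to the width of a 27-gauge needle, or gave them a sham operation. The animals were wild type (WT) or carried Prkca T497A, a threonine-to-alanine change in protein kinase C alpha. Surgery was done at 10 weeks of age and tissue was taken 1 week later, at 11 weeks. The groups were T497A TAC, WT TAC, T497A sham and WT sham, with 3 libraries each and 12 in all.

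The labels give no strain, sex or zygosity, and do not tie each library to a separate animal. The p-values therefore cover only library-to-library spread, which may be technical. They name the left ventricle as tissue and the cardiomyocyte as cell type, while the RNA was drawn from cardiac tissue. All 8 cardiomyocyte markers, 7 fibroblast markers and 7 macrophage markers fixed for a check were measured in these libraries, so they hold RNA of more cell types than the cardiomyocyte.

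Calcineurin is a phosphatase switched on by calcium and calmodulin. It strips phosphates from NFAT proteins, which then enter the nucleus and act on DNA with partners such as GATA4 and MEF2 proteins. In heart muscle this route is known for driving growth of the cell under load. Rcan1 encodes a protein that binds and restrains calcineurin, and one of its transcripts is itself switched on by NFAT, so that its level is widely used as a readout of calcineurin activity. MEF2 proteins bind A/T-rich sites in muscle genes and are held in check by class IIa histone deacetylases.

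Library depth ran from 58932759 to 72594085 counts. T497A sham stood apart from the other groups in sex-linked transcripts: Xist, the RNA of the inactive X chromosome, averaged 0.461 CPM in T497A TAC, 0.514 CPM in WT TAC, 183.5 CPM in T497A sham and 0.65 CPM in WT sham (CPM is the count scaled to a common library size, here with TMM, a per-library factor that centres the bulk of genes). Ddx3y, on the Y chromosome, averaged 92.7, 80.1, 0.252 and 105.4 CPM in the same order of groups. By these transcripts T497A sham has the pattern of female tissue and the other groups that of male tissue, while the labels give no sex. Results that use T497A sham therefore also compare libraries that may differ in sex, which could bear on any gene. In T497A sham against WT sham the genotype cannot be told apart from that difference, in T497A TAC against T497A sham the surgery cannot, and the interaction takes in both. Prkca itself averaged 46.2, 50.3, 33.8 and 44.4 CPM in that order, and a point mutation leaves no mark in gene counts, so the genotype labels were not checked by it. WT TAC also stood apart in its scaling: its TMM factors were 1.13 to 1.21, against 0.91 to 0.988 in the other 9 libraries. Mitochondrial genes took 19.2 to 19.8% of counts in T497A TAC, 9.67 to 14.7% in WT TAC, 15.97 to 17.3% in T497A sham and 19.1 to 20.99% in WT sham. WT TAC library 2 had both the highest factor and the lowest mitochondrial share. The summed cardiomyocyte markers ran from 52700 to 56500 CPM in T497A TAC, from 29000 to 34400 CPM in WT TAC, from 64600 to 66500 CPM in T497A sham and from 60000 to 66300 CPM in WT sham. The summed fibroblast markers ran from 1300 to 2040 CPM in T497A TAC, from 5780 to 12700 CPM in WT TAC, from 1010 to 1220 CPM in T497A sham and from 987 to 1140 CPM in WT sham. The summed atrial markers, of which Nppa also answers to load, ran from 230 to 510 CPM in T497A TAC, from 2530 to 2840 CPM in WT TAC, from 271 to 894 CPM in T497A sham and from 101 to 270 CPM in WT sham. In WT TAC against WT sham, 1 of the 4 was called higher and 0 lower, with a median of -0.28. Between T497A TAC and WT TAC, 0 were higher and 1 lower. In T497A TAC against T497A sham, 3 of the 4 (Myl4, Myl7 and Sln) were lower and Nppa was higher, with a median of -3.60. In bulk tissue, fewer cells of a type and less RNA per cell cannot be told apart, and the part of these shifts in the results on the 10 genes and on the pathway lists was not tested.

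Rcan1 lies on chromosome 16 (chr16:92391953-92470867, minus strand, GRCm38, ENSMUSG00000022951.16). RefSeq places transcripts of Rcan1 at a pair of starts 66091 bases apart, and counts per gene do not separate their transcripts. Both promoter windows are shown because the NFAT-driven transcript is known to begin at the downstream start. Each window runs from 250 bases before to 50 bases after the start on the gene's strand (GRCm38.p6, RefSeq), and capitals mark the NFAT core GGAAA or its reverse complement TTTCC. The upstream window is chr16:92466120-92466419 and the downstream window is chr16:92400029-92400328, both on the minus strand.
Rcan1 upstream start: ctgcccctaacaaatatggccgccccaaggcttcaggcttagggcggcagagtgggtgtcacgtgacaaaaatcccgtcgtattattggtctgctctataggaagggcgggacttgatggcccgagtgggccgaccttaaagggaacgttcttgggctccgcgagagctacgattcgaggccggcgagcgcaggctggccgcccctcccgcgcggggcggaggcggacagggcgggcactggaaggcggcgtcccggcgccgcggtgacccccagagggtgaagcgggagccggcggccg
Rcan1 downstream start: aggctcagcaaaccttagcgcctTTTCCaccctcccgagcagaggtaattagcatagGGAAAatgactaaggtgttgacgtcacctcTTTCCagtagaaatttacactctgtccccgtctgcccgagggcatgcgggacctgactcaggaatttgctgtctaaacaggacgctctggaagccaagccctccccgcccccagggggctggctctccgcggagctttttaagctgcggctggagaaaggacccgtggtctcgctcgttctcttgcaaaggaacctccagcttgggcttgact
The upstream window held 0 matches and the downstream window held 3, at positions -227, -193 and -163 from the start. Of 32851 RefSeq promoter windows of the same 300 bases, 61.3% held at least 1 match on either strand. A match describes the letters of the window, and binding was not measured.

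Rcan1 had the largest range of the 10 genes across the groups. It stood at 97.2, 94.7 and 90.5 CPM in the T497A TAC libraries. In WT TAC it stood at 172.5, 223.1 and 156.8 CPM. The T497A sham libraries gave 61.1, 55.1 and 61.8 CPM and the WT sham libraries 71.6, 68.3 and 61.7 CPM. WT TAC was thus highest, T497A TAC lay between it and the sham groups with no overlap, and the sham groups overlapped. The means were 94.1 ± 3.43 CPM in T497A TAC, 184.1 ± 34.6 CPM in WT TAC, 59.3 ± 3.71 CPM in T497A sham and 67.2 ± 5.05 CPM in WT sham (SD, n = 3 each).

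In WT ventricle Rcan1 rose 2.74-fold after TAC (log2 fold change 1.45 ± 0.11 SE, adjusted p = 2.61e-07, edgeR quasi-likelihood test with Benjamini-Hochberg adjustment over all genes tested, as for every adjusted p here unless named). In T497A ventricle it rose 1.59-fold (0.67 ± 0.11, adjusted p = 0.000668), a comparison in which surgery and the difference in Xist and Ddx3y cannot be told apart. After TAC it was lower in T497A than in WT (0.511 of the WT level, log2 fold change -0.97 ± 0.11, adjusted p = 2.06e-05). After sham it was not called between genotypes (-0.18 ± 0.11, adjusted p = 0.39). The TAC change in T497A minus that in WT was -0.79 ± 0.15 (adjusted p = 0.00181), so the TAC change differed between the genotype labels by the interaction test. That test takes in T497A sham, so the part of genotype cannot be told apart from the difference in Xist and Ddx3y. WT TAC library 2, the library with the highest TMM factor and the lowest mitochondrial share, gave the highest Rcan1 value, and their part in it was not tested. Without it the WT change was 1.29, the difference between T497A TAC and WT TAC was -0.81 and the interaction was -0.63, all still called. All 7 fibroblast and all 7 macrophage markers also rose with TAC in WT and were lower in T497A TAC than in WT TAC. All 8 cardiomyocyte markers went the other way in both comparisons. The part of these markers' cell types in the Rcan1 values was not tested.

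**Figure D1:**
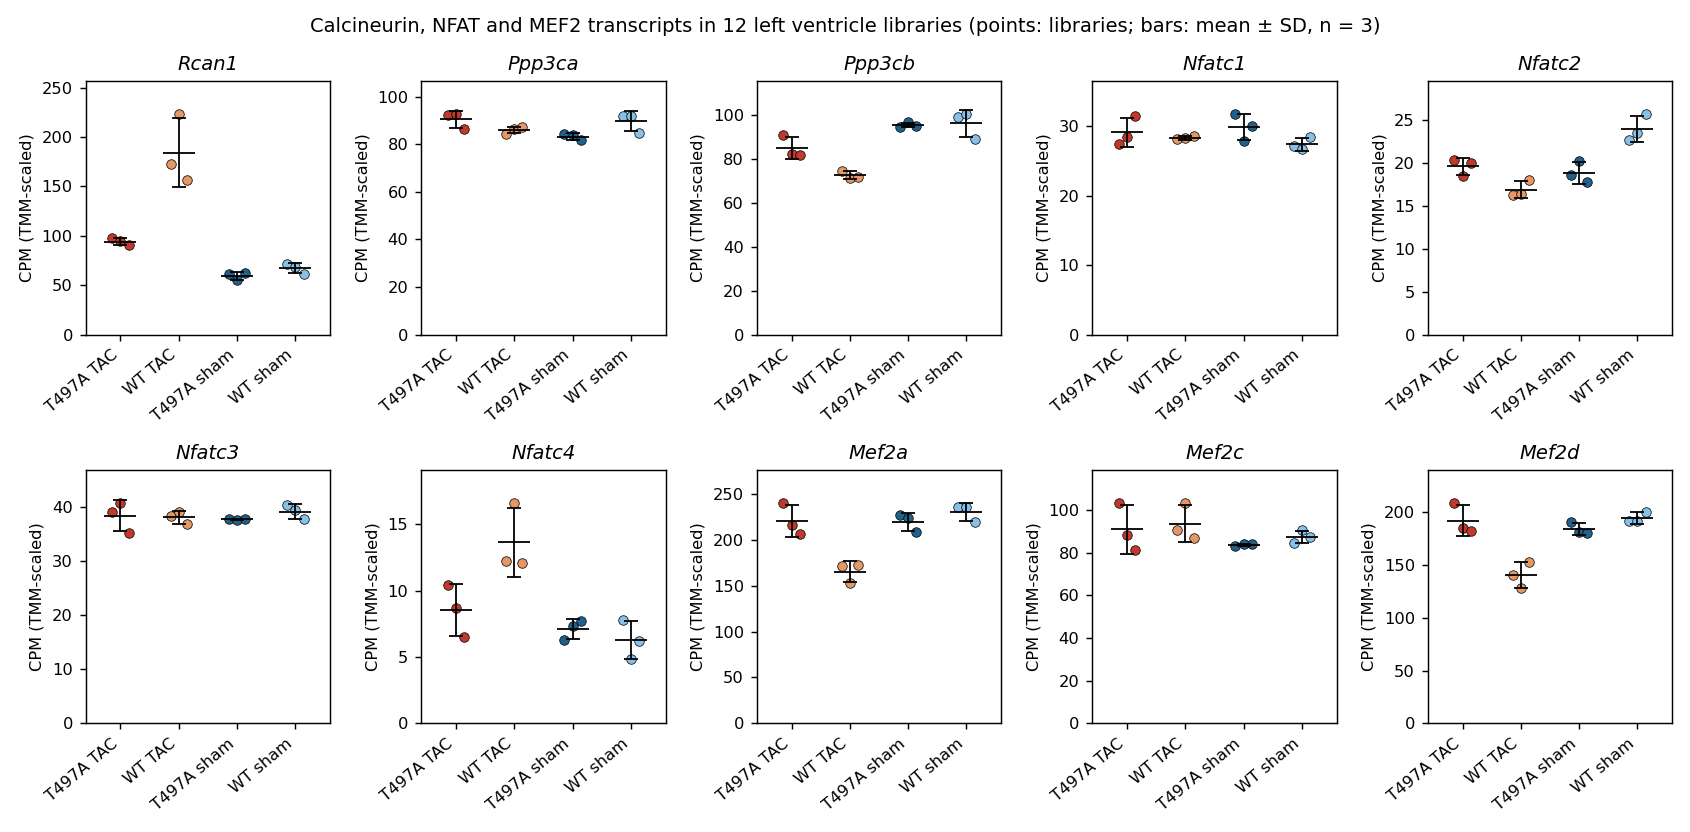
Level of each of the 10 genes by group (y axis, TMM-scaled CPM, each panel on its own scale). Each point is 1 library and bars give the mean ± SD of 3 libraries; Rcan1 and Nfatc4 are highest in WT TAC, while Ppp3cb, Mef2a and Mef2d are lowest there.

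Of the calcineurin catalytic genes, Ppp3cb changed with TAC in WT and Ppp3ca passed no edgeR test with TMM scaling. Ppp3cb (chr14:20499364-20546573, minus strand, ENSMUSG00000021816.11) encodes the beta form of the catalytic subunit. It stood at 91.0, 82.2 and 82.0 CPM in T497A TAC and at 74.7, 71.6 and 71.9 CPM in WT TAC. The T497A sham libraries gave 94.9, 96.8 and 95.2 CPM and the WT sham libraries 99.4, 100.6 and 89.1 CPM. WT TAC lay below all others, T497A TAC lay below T497A sham, and WT sham overlapped both T497A groups: its library 3 was below T497A TAC library 1. Ppp3cb fell in WT after TAC (-0.41 ± 0.06, adjusted p = 6.22e-05) and was higher in T497A TAC than in WT TAC (0.23 ± 0.06, adjusted p = 0.00919). In T497A the change was -0.17 ± 0.06 (adjusted p = 0.0558), just short of the threshold, and the interaction was 0.24 ± 0.09 (adjusted p = 0.0504). Leaving out single libraries brought both across the threshold: the T497A change was called without T497A TAC 1 (-0.22, adjusted p = 0.0271), WT TAC 2 (-0.17, adjusted p = 0.0404) or WT sham 3 (-0.17, adjusted p = 0.0457). The interaction was called without T497A TAC 2 (0.28, adjusted p = 0.0488), T497A TAC 3 (0.27, adjusted p = 0.0486) or WT sham 3 (0.29, adjusted p = 0.0213). With all 12 libraries, DESeq2 size factors and the DESeq2 Wald test called both, and limma-voom (-0.19, adjusted p = 0.0163) and a filter of 1 CPM in 6 libraries called the T497A change.

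Ppp3ca (chr3:136670124-136937727, plus strand, ENSMUSG00000028161.17), which encodes the alpha form, stood at 92.3, 92.6 and 86.4 CPM in T497A TAC and at 84.5, 86.4 and 87.1 CPM in WT TAC. In T497A sham it was at 84.2, 83.7 and 81.7 CPM, against 92.0, 91.9 and 84.7 CPM in WT sham. The T497A sham libraries lay just below all others, and the highest group mean was 1.09 times the lowest. The change with TAC was -0.06 in WT (adjusted p = 0.382) and 0.12 ± 0.05 in T497A (adjusted p = 0.115). Limma-voom called Ppp3ca higher in T497A TAC than in T497A sham (0.14, adjusted p = 0.0409) and than in WT TAC (0.11, adjusted p = 0.0341), and called its interaction (0.22, adjusted p = 0.015). The ratio of Ppp3ca to Ppp3cb per exon length within a library does not depend on library scaling, and averaged 0.94 in T497A TAC, 1.04 in WT TAC, 0.768 in T497A sham and 0.821 in WT sham. On the log2 scale it was higher after TAC by 0.35 in WT and by 0.29 in T497A, with no overlap of the libraries in either case (exact permutation test, two-sided, p = 0.1, the smallest that 3 against 3 allows, and 0.18 after adjustment over 18 ratio tests).

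The NFAT genes did not move together. Nfatc4 rose and Nfatc2 fell with TAC in WT, while Nfatc1 and Nfatc3 passed no test with TMM scaling in TAC against sham of either genotype, between genotypes or in the interaction. Nfatc4 (chr14:55823144-55833943, plus strand, ENSMUSG00000023411.12) encodes a calcineurin-dependent NFAT. Its promoter window is shown because it was the NFAT gene that rose; capitals mark the NFAT core, at chr14:55824545-55824844 on the plus strand.
Nfatc4: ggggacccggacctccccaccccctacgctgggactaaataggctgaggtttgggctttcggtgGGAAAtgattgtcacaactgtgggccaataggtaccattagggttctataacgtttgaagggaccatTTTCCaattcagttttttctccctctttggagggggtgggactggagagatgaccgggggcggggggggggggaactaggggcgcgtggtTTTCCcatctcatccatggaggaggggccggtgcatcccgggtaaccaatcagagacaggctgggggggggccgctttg
The window held 3 matches, at positions -186, -119 and -29 from the start. RefSeq windows were found for 8 of the 10 genes, and of all RefSeq windows 2.65% held 4 or more matches. The Ppp3cb window held 4 and the window at 1 of the 3 Mef2c starts held 5. For Nfatc2, the NFAT gene that fell, the window at 1 of the 2 starts also held 3. Of all RefSeq windows 61.3% held at least 1 match.

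Nfatc4 stood at 10.4, 8.66 and 6.51 CPM in T497A TAC and at 12.2, 16.6 and 12.1 CPM in WT TAC. The T497A sham libraries gave 6.27, 7.30 and 7.71 CPM and the WT sham libraries 7.78, 4.86 and 6.20 CPM. The WT TAC libraries lay above all others, and the remaining groups overlapped. It was the least abundant of the 10 genes, and its lowest library held 265 counts, the fewest of any of the 10. Nfatc4 rose 2.17-fold after TAC in WT (1.12 ± 0.20, adjusted p = 0.000363), while in T497A the change was 0.27 ± 0.20 (adjusted p = 0.365). The difference between T497A TAC and WT TAC was -0.68 ± 0.19 (adjusted p = 0.0154), a call that was lost without T497A TAC 3 (-0.51, adjusted p = 0.0622) or WT TAC 2 (-0.51, adjusted p = 0.0667). The interaction of -0.85 ± 0.28 (adjusted p = 0.0353) was lost without T497A TAC 2 (-0.85, adjusted p = 0.0675), T497A TAC 3 (-0.68, adjusted p = 0.0704) or WT TAC 2 (-0.68, adjusted p = 0.0768). It was also lost without T497A sham 2 (-0.83, adjusted p = 0.0674), T497A sham 3 (-0.78, adjusted p = 0.0824), WT sham 2 (-0.69, adjusted p = 0.0795) or WT sham 3 (-0.84, adjusted p = 0.0729). All 7 fibroblast markers and all 7 macrophage markers rose with TAC in WT, and all were lower in T497A TAC than in WT TAC, the same directions as Nfatc4. Their part in the Nfatc4 values was not tested.

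Nfatc2 (chr2:168476410-168601657, minus strand, ENSMUSG00000027544.16), best known from T cells, stood at 20.4, 18.5 and 19.96 CPM in T497A TAC and at 16.3, 16.4 and 18.04 CPM in WT TAC. The T497A sham libraries gave 18.6, 20.2 and 17.7 CPM and the WT sham libraries 22.7, 23.5 and 25.7 CPM. WT sham lay above all other groups, which overlapped along a chain. Nfatc2 fell with TAC in WT (-0.50 ± 0.08, adjusted p = 9.42e-05), and the change in T497A was 0.06 (adjusted p = 0.658), with an interaction of 0.56 ± 0.11 (adjusted p = 0.00193). The 7 T cell markers summed to 2.75 to 3.02 CPM in T497A TAC, 3.85 to 5.97 CPM in WT TAC, 3.27 to 5.9 CPM in T497A sham and 2.41 to 3.97 CPM in WT sham, and the defining markers Cd3d, Cd3e, Cd3g and Cd8a were under 1 CPM in every library. Of the 7, 1 rose with TAC in WT (Cd4) and 2 fell in T497A (Cd3g and Trac), and their part in the Nfatc2 values was not tested.

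Nfatc2 was also the only one of the 10 genes called between the sham groups, where it was lower in T497A (-0.35 ± 0.08, adjusted p = 0.0183). That call was lost without T497A sham 1 (-0.34, adjusted p = 0.0595), T497A sham 3 (-0.31, adjusted p = 0.0887), WT sham 2 (-0.36, adjusted p = 0.0549) or WT sham 3 (-0.29, adjusted p = 0.0933). The higher level in T497A TAC than in WT TAC (0.21 ± 0.08, adjusted p = 0.0479) was at the edge of the threshold, and 14 of 24 alternatives ended the call. With the replicate number as a block it was 0.21 (adjusted p = 0.0642). It was lost without T497A TAC 1 (0.19, adjusted p = 0.139), T497A TAC 3 (0.20, adjusted p = 0.116), WT TAC 1 (0.19, adjusted p = 0.148) or WT TAC 2 (0.19, adjusted p = 0.123), and also without T497A sham 1 (0.22, adjusted p = 0.0528), WT sham 1 (0.22, adjusted p = 0.0538) or WT sham 2 (0.22, adjusted p = 0.0607).

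Nfatc1 (chr18:80606205-80713071, minus strand, ENSMUSG00000033016.16), known for its role in heart valve formation, averaged 29.1 ± 2.15 CPM in T497A TAC, 28.4 ± 0.238 CPM in WT TAC, 29.95 ± 1.92 CPM in T497A sham and 27.4 ± 0.925 CPM in WT sham (SD, n = 3 each). Its change was 0.05 in WT (adjusted p = 0.603) and -0.04 in T497A (adjusted p = 0.731).

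Nfatc3 (chr8:106058840-106130537, plus strand, ENSMUSG00000031902.10), a calcineurin-dependent NFAT studied in heart growth, averaged 38.5 ± 2.85 CPM in T497A TAC, 38.2 ± 1.17 CPM in WT TAC, 37.8 ± 0.123 CPM in T497A sham and 39.3 ± 1.36 CPM in WT sham. For Nfatc3 as for Nfatc1, groups next to each other in level overlapped, and the highest group mean was 1.04 times the lowest for Nfatc3 and 1.09 times for Nfatc1. The annotated exons of Nfatc3 and of the opposite-strand gene Esrp2 overlap over 219 bases, or 1.87% of the Nfatc3 exon length. The strand of counting is not given in the sources used here. Within a library, the log2 ratio of Nfatc4 to Nfatc3 was 1.17 higher after TAC in WT with no overlap (exact permutation test, two-sided, p = 0.1, adjusted p = 0.18) and 0.22 higher in T497A with overlap (exact p = 0.4). The sum of the NFAT genes per exon length varied little, while the share of Nfatc4 in that sum was 13.9% ± 2.89 in T497A TAC, 21.2% ± 3.08 in WT TAC, 11.9% ± 1.29 in T497A sham and 10.4% ± 2.16 in WT sham.

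Mef2a and Mef2d changed together, and Mef2c did not follow them. Mef2a (chr7:67231163-67372858, minus strand, ENSMUSG00000030557.17) and Mef2d (chr3:88142372-88172086, plus strand, ENSMUSG00000001419.17) encode MEF2 factors of adult heart muscle. The Mef2a promoter window is shown because its start carried a match to the MEF2 consensus, marked in capitals, in chr7:67372809-67373108 on the minus strand.
Mef2a: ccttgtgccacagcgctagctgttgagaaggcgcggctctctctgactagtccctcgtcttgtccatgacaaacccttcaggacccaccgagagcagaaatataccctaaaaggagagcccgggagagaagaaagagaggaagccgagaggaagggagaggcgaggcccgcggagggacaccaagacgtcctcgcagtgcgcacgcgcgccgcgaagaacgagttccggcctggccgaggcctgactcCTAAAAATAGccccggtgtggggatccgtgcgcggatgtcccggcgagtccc
The match runs from position -2 to position 8 around the start. Of all RefSeq windows, 3.19% held this consensus, and the window held 0 NFAT cores.

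Mef2a stood at 240.8, 216.4 and 206.9 CPM in T497A TAC and at 171.4, 152.9 and 173 CPM in WT TAC. T497A sham gave 227.6, 223.9 and 209.2 CPM, and WT sham gave 236.2, 236.4 and 219.5 CPM. The WT TAC libraries lay below all others, and the other groups overlapped with one another. Mef2a fell with TAC in WT (-0.48 ± 0.07, adjusted p = 5.25e-05), and its change in T497A was 0.01 (adjusted p = 0.956). It was higher in T497A TAC than in WT TAC (1.34-fold, 0.42 ± 0.07, adjusted p = 0.000349), and the interaction was 0.48 ± 0.10 (adjusted p = 0.00221).

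Mef2d stood at 209.2, 185.2 and 182.2 CPM in T497A TAC and at 141.1, 128.1 and 152.7 CPM in WT TAC. In T497A sham it was at 191.2, 181.6 and 180.4 CPM, against 191.5, 191.7 and 200.9 CPM in WT sham. Again the WT TAC libraries lay below all others, and the WT sham libraries lay just above those of T497A sham. Mef2d fell with TAC in WT (-0.47 ± 0.07, adjusted p = 6.49e-05) and was higher in T497A TAC than in WT TAC (1.37-fold, 0.45 ± 0.07, adjusted p = 0.000207), with an interaction of 0.53 ± 0.10 (adjusted p = 0.0013). Where only library totals were used for scaling, the falls in WT stood at -0.15 for Mef2a (adjusted p = 0.0661) and -0.14 for Mef2d (adjusted p = 0.0805) and were no longer called. All 8 cardiomyocyte markers also fell with TAC in WT (median -0.95) and were higher in T497A TAC than in WT TAC (median 0.79), and their part in the MEF2 values was not tested. Opposite-strand genes overlap Mef2a over 302 bases (Lysmd4, 2.06% of the Mef2a exon length) and Mef2d over 531 bases (1700113A16Rik, 8.87%).

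Mef2c (chr13:83504034-83667080, plus strand, ENSMUSG00000005583.16), which is needed to form the heart in the embryo, stood at 103.4, 88.1 and 81.2 CPM in T497A TAC and at 90.4, 103.3 and 86.8 CPM in WT TAC. In T497A sham it was at 83.2, 84.0 and 84.1 CPM, against 84.8, 90.5 and 87.2 CPM in WT sham. Each TAC group held 1 library above 100 CPM, and the TAC groups overlapped, while the T497A sham libraries lay just below those of WT sham. The change was 0.10 in WT (adjusted p = 0.36) and 0.12 in T497A (adjusted p = 0.333), and between T497A TAC and WT TAC it was -0.04 (adjusted p = 0.739). The ratio of Mef2c to Mef2d per exon length averaged 0.18 in T497A TAC, 0.256 in WT TAC, 0.173 in T497A sham and 0.171 in WT sham. On the log2 scale that ratio was 0.57 higher after TAC in WT, with no overlap (exact permutation test, two-sided, p = 0.1, adjusted p = 0.18), and 0.05 higher in T497A, with overlap (exact p = 0.4). The ratio of Mef2a to Mef2d differed by -0.01 in WT (exact p = 1) and by -0.05 in T497A (exact p = 0.2).

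Levels of different genes can be compared only per exon length, in RPKM (CPM divided by the exon length in kilobases). In WT sham, Mef2d stood at 32.5 RPKM, Rcan1 at 21.8, Mef2a at 15.7, Ppp3cb at 10.9 and Ppp3ca at 8.97. Mef2c stood at 5.57 RPKM, Nfatc1 at 3.67, Nfatc3 at 3.35, Nfatc2 at 2.27 and Nfatc4 at 1.08. In WT TAC, Rcan1 led with 59.7 RPKM, ahead of Mef2d with 23.5 RPKM. In T497A TAC, Mef2d with 32.1 RPKM and Rcan1 with 30.5 RPKM were at the top. The 3 MEF2 genes summed to 53 ± 4.37 RPKM in T497A TAC, 40.7 ± 2.22 RPKM in WT TAC, 51.1 ± 1.51 RPKM in T497A sham and 53.8 ± 0.305 RPKM in WT sham. The 4 NFAT genes summed to 10.5, 11, 10.2 and 10.4 RPKM in the same order of groups.

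**Figure D2:**
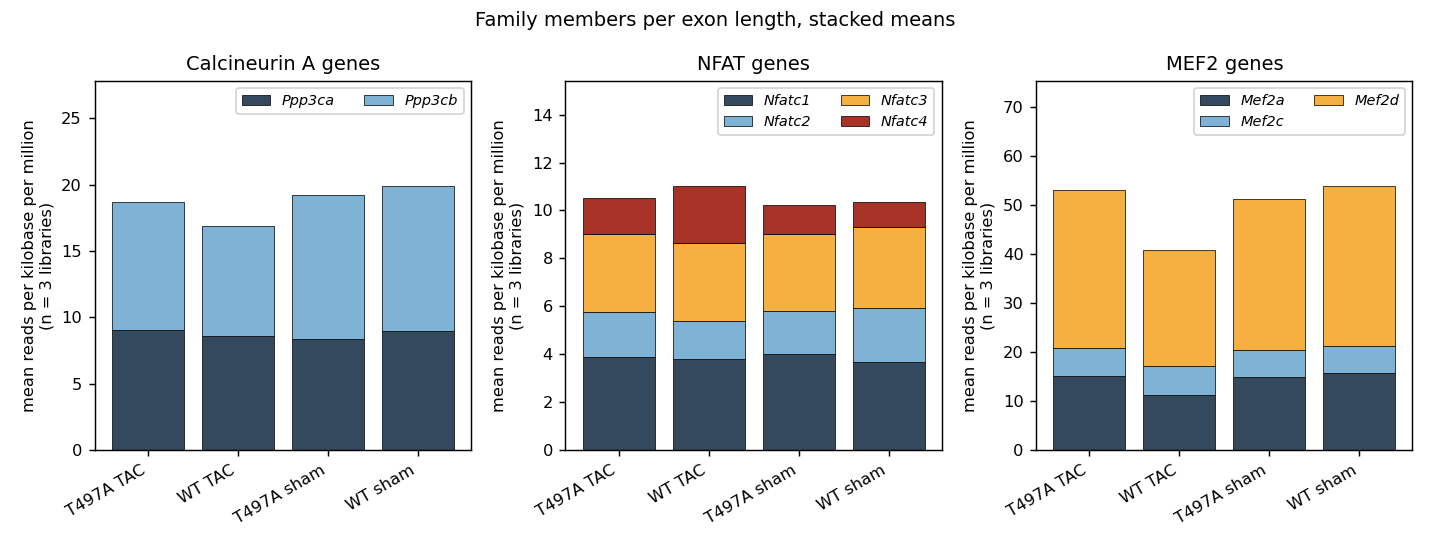
Stacked mean RPKM (y axis) of the calcineurin catalytic genes Ppp3ca and Ppp3cb, the NFAT genes and the MEF2 genes in each group of 3 libraries. Ppp3cc is not drawn, and its mean share of the RPKM summed with Ppp3ca and Ppp3cb was 31.8% to 32.9% by group. The MEF2 stack is lowest in WT TAC at 40.7 RPKM, and Nfatc4 takes its largest share of the NFAT stack there at 21.2%.

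Across the 10 genes, 2 rose and 4 fell with TAC in WT, which is 6 of 10 where 49.9% of all genes tested were called (25.9% higher and 24% lower). The median change of the 10 was -0.05, beside 0.03 for all genes. In T497A 1 of 10 was called, Rcan1, where 24.4% of all genes were called (12.9% higher and 11.4% lower), and the median was 0.06 beside 0.00. Between T497A TAC and WT TAC 4 were higher and 2 lower, where 35.7% of all genes were called (17.8% higher and 17.9% lower). Between the sham groups 1 was called, lower in T497A, where 5.79% of all genes were called (2.99% higher and 2.8% lower). The interaction was called for 5, Rcan1, Nfatc2, Nfatc4, Mef2a and Mef2d, where 29.5% of all genes were called (15.3% higher and 14.2% lower). Groups of 3 libraries that did not overlap were found for 6 of the 10 genes in WT (60.2% of all genes), 3 in T497A (40.6%), 6 between the TAC groups (49.5%) and 4 between the sham groups (26.4%). The shares in WT and between the TAC groups stand within a background in which a large part of all genes was called, and the comparisons share groups, so they are not independent of one another.

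**Figure D3:**
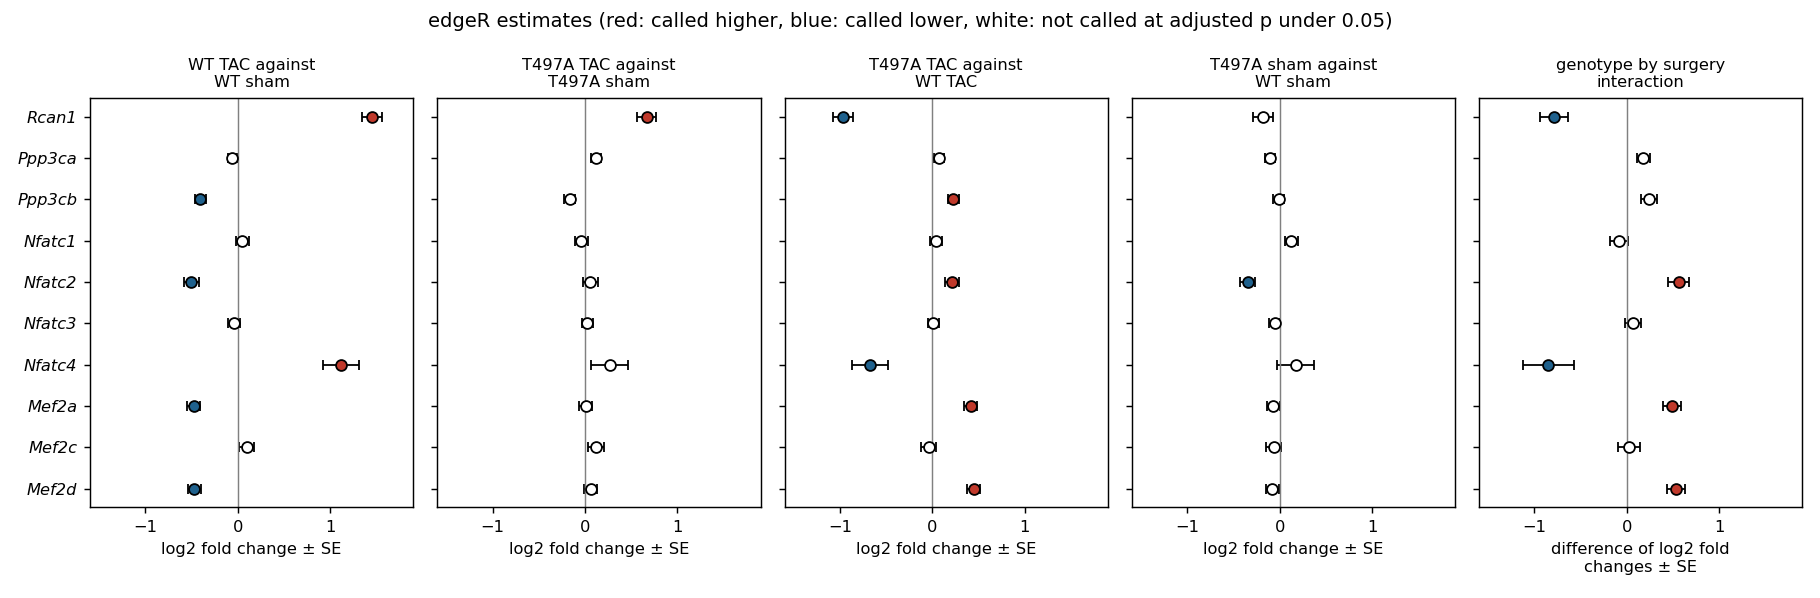
Log2 fold change ± SE (x axis) of the 10 genes in 5 comparisons, from TMM-scaled counts. Red points were called higher, blue points called lower and white points not called at adjusted p under 0.05; 6 genes were called in WT and Rcan1 alone in T497A.

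The direction of the smaller changes depended on scaling. With library totals in place of TMM factors, the median of all genes in WT TAC against WT sham stood at 0.36 instead of 0.03, in T497A TAC against WT TAC at -0.27 instead of -0.02, and in the interaction at -0.31 instead of -0.01. In either direction, 10357 of the 17699 genes tested were then called in WT, 8332 between the TAC groups and 6869 in the interaction. On that scale 6 of the 10 genes were called higher and 0 lower in WT: Rcan1 (1.79), Nfatc4 (1.46), Mef2c (0.43), Nfatc1 (0.38), Nfatc3 (0.29) and Ppp3ca (0.27). The remaining changes were -0.07 for Ppp3cb, -0.17 for Nfatc2, -0.15 for Mef2a and -0.14 for Mef2d, each below the all-gene median of 0.36 and not called. Between T497A TAC and WT TAC, 2 were called higher, Mef2a (0.17, adjusted p = 0.0446) and Mef2d (0.20, adjusted p = 0.02), and 6 lower, Rcan1 (-1.23) and Nfatc4 (-0.93) among them. In the interaction 3 were called, Rcan1 (-1.10), Nfatc4 (-1.15) and Nfatc1 (-0.39), and Nfatc2 (0.26), Mef2a (0.19) and Mef2d (0.23) were not. The TAC rises of Rcan1 and Nfatc4 in WT, and their lower level in T497A TAC, held on both scales.

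**Figure D4:**
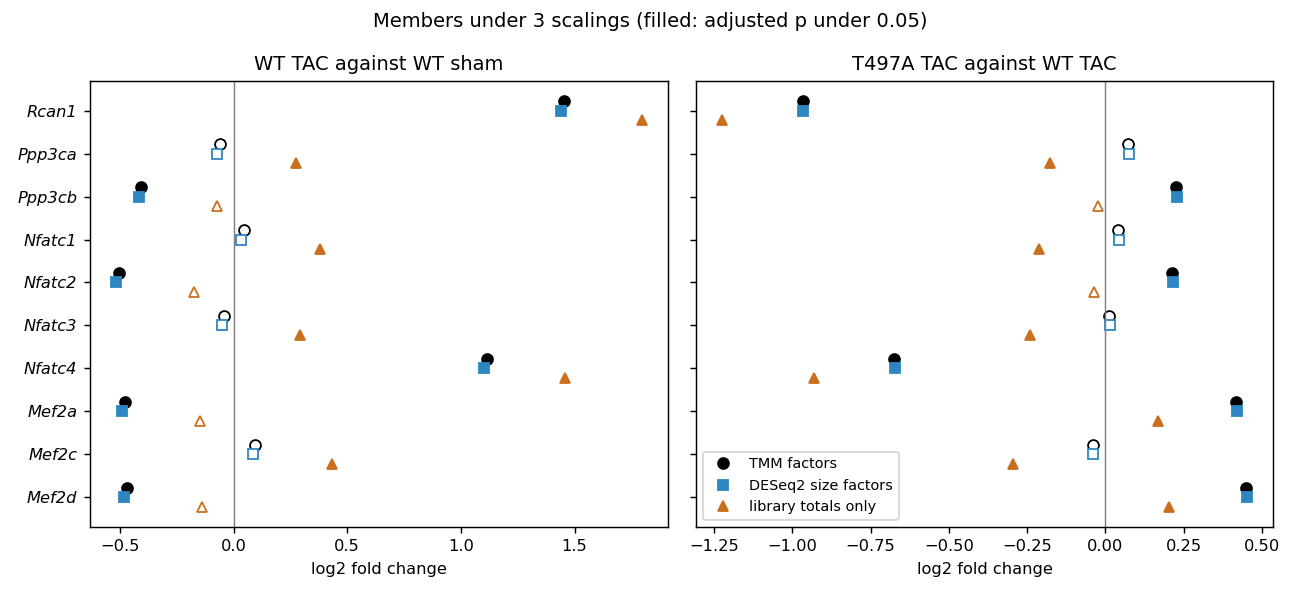
Log2 fold change (x axis) of the 10 genes in WT TAC against WT sham and in T497A TAC against WT TAC under TMM factors (circles), DESeq2 size factors (squares) and library totals alone (triangles). Filled marks were called at adjusted p under 0.05; the triangles lie to the right of the circles in the WT comparison and to the left in the other, by about the shift of the all-gene median.

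Crossing the labels gave comparisons that share libraries with those above. Each changes genotype and surgery together, so their parts cannot be told apart. WT TAC against T497A sham also takes in the difference in Xist and Ddx3y. T497A TAC against WT sham leaves out T497A sham. There Rcan1 was higher, 1.4-fold (0.49 ± 0.11, adjusted p = 0.0135), and Nfatc2 lower (-0.29 ± 0.08, adjusted p = 0.0316), so 2 of 10 were called where 10% of all genes were (6.12% higher and 3.9% lower). The libraries did not overlap for 2 of the 10 genes in that comparison, beside 33.6% of all genes. The Rcan1 call was lost without T497A TAC 2 (0.49, adjusted p = 0.0532) or WT sham 3 (0.43, adjusted p = 0.0586). The Nfatc2 call was lost without T497A TAC 2 (-0.24, adjusted p = 0.16), T497A TAC 3 (-0.30, adjusted p = 0.0708), WT sham 1 (-0.33, adjusted p = 0.0564), WT sham 2 (-0.30, adjusted p = 0.0742) or WT sham 3 (-0.24, adjusted p = 0.132). Mef2a (-0.06) and Mef2d (-0.02) were not called in it. In WT TAC against T497A sham, Rcan1 (1.63 ± 0.11, 3.1-fold, adjusted p = 8.9e-08) and Nfatc4 (0.94 ± 0.20, adjusted p = 0.00123) were higher and Ppp3cb (-0.39), Mef2a (-0.41) and Mef2d (-0.39) lower, 5 of 10 where 50.2% of all genes were called (25.6% higher and 24.6% lower). The libraries did not overlap for 7 of the 10 genes there, beside 58.4% of all genes.

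The further genes of the pathway were read from 5 lists, whose counts stand against all genes tested: with TAC 25.9% of all genes rose and 24% fell in WT (median 0.03), 12.9% rose and 11.4% fell in T497A (median 0.00), and between T497A TAC and WT TAC 17.8% were higher and 17.9% lower (median -0.02). Those shares hold for TMM factors only. On library totals alone, 10357 of the 17699 genes tested were called in WT (median 0.36). The totals were 4175 in T497A (median 0.04) and 8332 between the TAC groups (median -0.27), in either direction. Of the list of calcineurin subunits, anchors and modulators, 14 of 16 genes were tested (Ppp3r2 and Myoz3 were not), and in WT 6 rose and 6 fell with TAC, with a median of 0.16. Ppia rose from this list (0.52 ± 0.06); it encodes cyclophilin A, the partner through which ciclosporin blocks calcineurin, and has processed copies in the genome that make its counts uncertain. Cib1, which anchors calcineurin at the cell membrane, averaged 9.65 CPM in T497A TAC, 14.6 CPM in WT TAC, 8.47 CPM in T497A sham and 8.30 CPM in WT sham. It rose in WT (0.82 ± 0.11) and was lower in T497A TAC than in WT TAC (-0.60 ± 0.11). Fkbp1a, the binding protein of tacrolimus, rose in WT (0.38 ± 0.06) and in T497A (0.23 ± 0.06). Akap6, a scaffold that holds calcineurin at the nuclear envelope, fell in WT (-0.46 ± 0.07) and was higher in T497A TAC than in WT TAC (0.44 ± 0.07). The remaining calcineurin subunit genes Ppp3cc (-0.27 ± 0.08) and Ppp3r1 (-0.27 ± 0.06), named after their values were seen, fell in WT as Ppp3cb did. None of the 6 falls in WT was called on library totals alone. In T497A 5 rose and 1 fell, among them Lmcd1 (0.49 ± 0.09) and Akap5 (2.47 ± 0.46), which were lowest in T497A sham. Myoz1, a protein of the muscle Z-disc that binds calcineurin, also rose there (1.65 ± 0.45) at means of 0.544 CPM in T497A TAC and 0.172 CPM in T497A sham, a call lost without T497A TAC 3 (1.41, adjusted p = 0.0653) or T497A sham 2 (1.46, adjusted p = 0.056). Between T497A TAC and WT TAC 3 were higher and 4 lower, Ppia (-0.42 ± 0.06) and Fkbp1a (-0.26 ± 0.06) among the lower. On library totals alone those counts were 7 and 0 in WT, 5 and 1 in T497A, and 1 higher and 6 lower between the TAC groups.

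Of 12 genes for calmodulin and calcium entry or release, 6 rose and 3 fell with TAC in WT, with a median of 0.17. Cacna1c, the pore of the L-type calcium channel, averaged 354.5 ± 29.6 CPM in T497A TAC, 243.7 ± 0.394 CPM in WT TAC, 423.8 ± 19.6 CPM in T497A sham and 367.7 ± 8.03 CPM in WT sham. It fell in WT (-0.59 ± 0.06) and was higher in T497A TAC than in WT TAC (0.54 ± 0.06). Its fall in T497A (-0.26 ± 0.06, adjusted p = 0.009) was lost without T497A TAC 3 (-0.21, adjusted p = 0.0503). The calmodulin gene Calm2 rose in WT (0.52 ± 0.07) and in T497A (0.30 ± 0.07). Itpr2, a calcium release channel, rose in WT (0.37 ± 0.07) and was lower in T497A TAC than in WT TAC (-0.29 ± 0.07). Trpc6, a cation channel opened by diacylglycerol, rose in WT (2.60 ± 0.52) at low counts, with means of 0.348 CPM in T497A TAC, 1.06 CPM in WT TAC, 0.276 CPM in T497A sham and 0.172 CPM in WT sham. Cacna1h, the pore of a T-type channel, was higher in T497A TAC than in WT TAC (1.09 ± 0.26), with means of 19.6 and 9.21 CPM. In T497A 1 rose and 1 fell, and between T497A TAC and WT TAC 3 were higher and 5 lower. On library totals alone the counts were 9 higher and 2 lower in WT, 2 and 1 in T497A, and 2 higher and 9 lower between the TAC groups.

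Of 14 NFAT kinases and partners, 2 rose and 6 fell with TAC in WT, with a median of -0.13. The p38 alpha gene Mapk14 averaged 70.2 ± 5.46 CPM in T497A TAC, 58.2 ± 3.16 CPM in WT TAC, 85.8 ± 3.43 CPM in T497A sham and 88.4 ± 4.29 CPM in WT sham. It fell in WT (-0.60 ± 0.07) and in T497A (-0.29 ± 0.07). The kinase genes Mapk9 (-0.41 ± 0.05), Dyrk1a (-0.36 ± 0.06) and Gsk3a (-0.34 ± 0.06), whose products can phosphorylate NFAT proteins, fell in WT, and on library totals alone none of these 3 was called. Gata4, whose protein binds DNA with NFAT, rose in T497A (0.37 ± 0.06). Its T497A sham mean was the lowest of the groups, at 99.1 CPM beside 118.6 CPM in WT sham and 108.7 CPM in WT TAC. Gata4 (0.24 ± 0.06), Mapk9 (0.26 ± 0.05), Mapk14 (0.27 ± 0.07) and the casein kinase gene Csnk1e (0.27 ± 0.06) were higher in T497A TAC than in WT TAC. In that comparison 6 of the list were higher and 1 lower, a balance that turned to 0 higher and 5 lower on library totals alone. In WT the counts on that scale were 7 higher and 1 lower, and in T497A they were 2 and 1, beside 1 and 2 with TMM factors.

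Of 10 MEF2 regulators tested (Mef2b was not), 2 rose and 3 fell with TAC in WT, with a median of -0.17. Hdac4, Hdac5, Hdac7 and Hdac9 encode class IIa histone deacetylases that repress MEF2, and they did not move together. Hdac4 averaged 38.6 ± 0.885 CPM in T497A TAC, 23.5 ± 1.51 CPM in WT TAC, 42.7 ± 4.10 CPM in T497A sham and 38.2 ± 4.68 CPM in WT sham. Hdac5 averaged 116.2 ± 6.47 CPM in T497A TAC, 83.9 ± 2.69 CPM in WT TAC, 117.1 ± 1.77 CPM in T497A sham and 119.6 ± 2.25 CPM in WT sham. Hdac4 and Hdac5 were lowest in WT TAC: they fell in WT (-0.70 ± 0.09 and -0.51 ± 0.05) and were higher in T497A TAC than in WT TAC (0.71 ± 0.09 and 0.47 ± 0.05). Hdac7 was highest in WT TAC, with means of 50.3 ± 6.1 CPM in T497A TAC, 60.8 ± 4.24 CPM in WT TAC, 42.3 ± 2.12 CPM in T497A sham and 45.4 ± 5.82 CPM in WT sham. It rose in WT (0.42 ± 0.10, called in all 24 alternatives). Its lower level in T497A TAC than in WT TAC (-0.27 ± 0.10, adjusted p = 0.0452) lost its call in 12 of 24 alternatives. Single libraries whose removal ended it were T497A TAC 1 (-0.18) and 2 (-0.28), WT TAC 1 (-0.27) and 2 (-0.22), WT sham 1 (-0.27) and each T497A sham library (-0.27). Hdac9 averaged 27.4 CPM in T497A TAC, 26.2 CPM in WT TAC, 27.2 CPM in T497A sham and 27.6 CPM in WT sham and was called in no comparison. Mapk7, the ERK5 kinase that phosphorylates MEF2 proteins, rose in WT (1.20 ± 0.12) and in T497A (0.73 ± 0.12) and was lower in T497A TAC than in WT TAC (-0.51 ± 0.12). In T497A 1 rose and 0 fell, and between the TAC groups 3 were higher and 2 lower. On library totals alone the counts were 5 and 2 in WT, 3 and 0 in T497A, and 2 higher and 4 lower between the TAC groups.

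Of 9 genes reported as NFAT or MEF2 targets, 4 rose and 3 fell with TAC in WT, with a median of 0.12. Xirp2, an actin-binding protein of the intercalated disc, averaged 1468 ± 76.1 CPM in T497A TAC, 2633 ± 212.1 CPM in WT TAC, 807.4 ± 77.4 CPM in T497A sham and 997.6 ± 62.1 CPM in WT sham. It rose in WT (1.4 ± 0.09) and in T497A (0.86 ± 0.09) and was lower in T497A TAC than in WT TAC (-0.84 ± 0.09), the same order of TAC and sham groups as Rcan1. The skeletal actin gene Acta1 rose in WT (3.16 ± 0.34) and in T497A (2.73 ± 0.34). Slc2a4, the insulin-responsive glucose transporter, fell in WT (-1.13 ± 0.09) and was higher in T497A TAC than in WT TAC (0.85 ± 0.09). Ppargc1a, a coactivator of mitochondrial genes, fell in WT (-1.16 ± 0.14) and in T497A (-1.17 ± 0.14). Nppb, the natriuretic peptide gene, rose in T497A (3.38 ± 0.26), where its sham level was the lowest of the groups. Its mean was also higher after TAC in WT, at 524.8 CPM in WT TAC and 125.3 CPM in WT sham. Ckm, the muscle creatine kinase, was higher in T497A TAC than in WT TAC (0.73 ± 0.11). In T497A 4 rose and 2 fell, and between the TAC groups 4 were higher and 1 lower. On library totals alone the counts were 5 and 3 in WT, 3 and 2 in T497A, and 2 higher and 3 lower between the TAC groups.

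**Figure D5:**
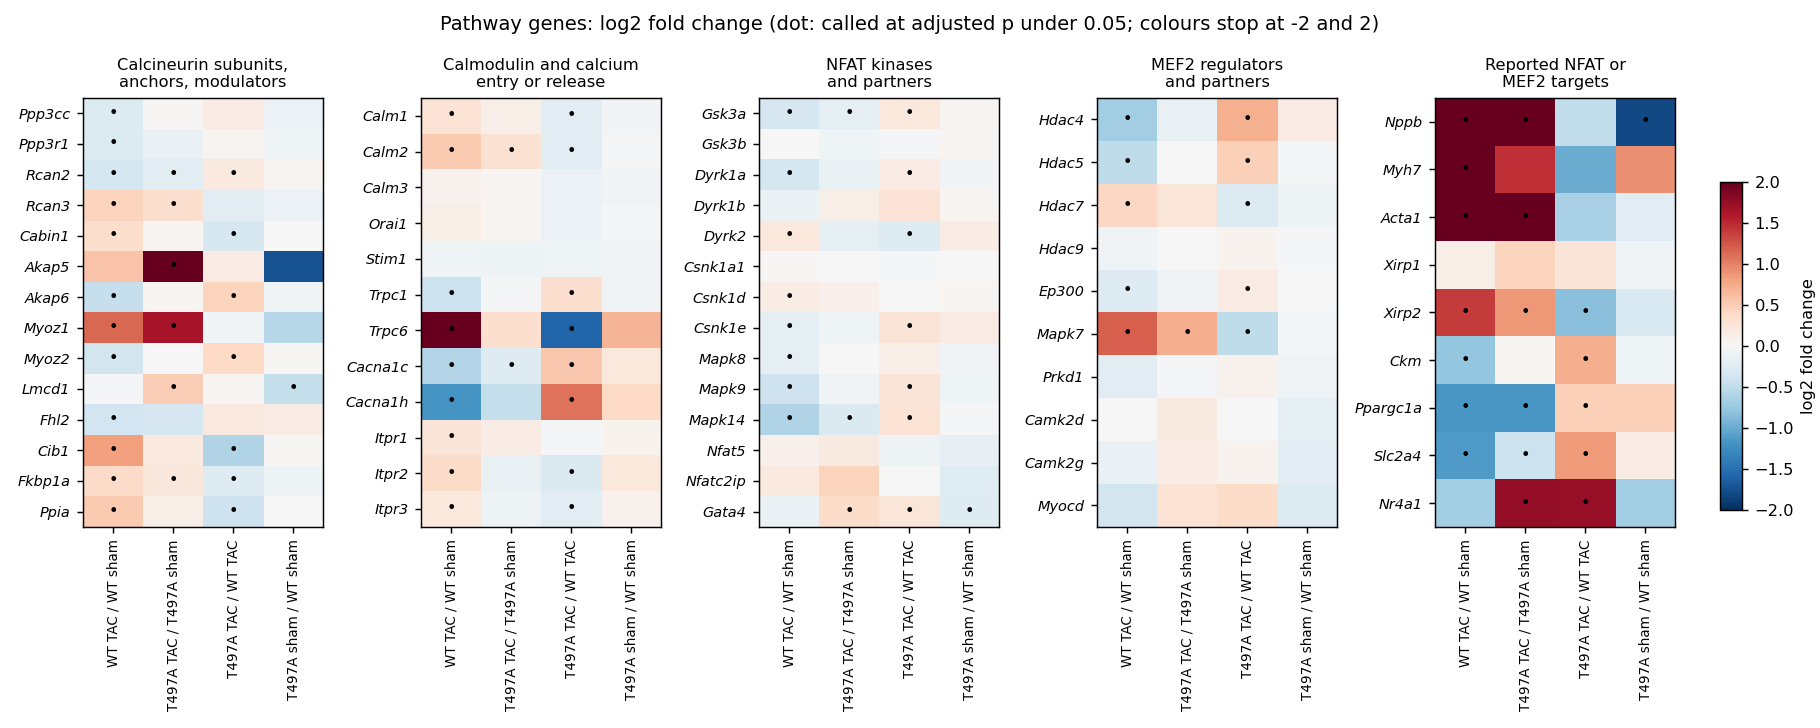
Log2 fold changes from TMM-scaled counts (colour, stopping at -2 and 2) of the genes of the 5 lists in 4 comparisons. Dots mark genes called at adjusted p under 0.05; they are most frequent in WT TAC against WT sham and scarce between the sham groups.

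The genes most like Rcan1 were sought among 14195 named genes by the root mean square difference of log2 CPM, each gene centred on its own mean over the 12 libraries. The nearest were Septin11 (0.10), Myo1f (0.12), F2r (0.12), Nid1 (0.12) and Scarf2 (0.12), beside a median of 0.68 over all genes ranked. Septin11 averaged 41.3 ± 2.78 CPM in T497A TAC, 73.6 ± 14.2 CPM in WT TAC, 26.1 ± 2.17 CPM in T497A sham and 30.1 ± 0.172 CPM in WT sham. Nid1, a basement membrane protein, averaged 294 ± 14.04 CPM in T497A TAC, 526.9 ± 61.2 CPM in WT TAC, 197.7 ± 13.8 CPM in T497A sham and 203.5 ± 14.3 CPM in WT sham. All 5 had the same order of groups as Rcan1. They were chosen for this likeness, so it is a description with no test.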

How the data were processed

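KAPA mRNA HyperPrep libraries of total RNA were sequenced single-end for 50 cycles, all with the same batch date, per the labels. The authors deposited raw read counts per gene, 1 column per library. Trim Galore 0.6.4, STAR 2.7.3a and featureCounts of Subread 1.6.3 are named in the submitters' processing notes, which list both mm10 and GRCh38. Mouse IDs were used here: 55141 of 55401 matched GENCODE M21 of GRCm38. The annotation release, strand setting and handling of multi-mapping reads are, for this table, not given in the sources used here. No per-sample column was left unused. Library numbers are those of the library names.

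From the counts, genes were kept by edgeR's filterByExpr, scaled by TMM and fitted with edgeR 4.0.16 (R 4.3.3, robust glmQLFit, glmQLFTest) with 1 mean per group over all 12 libraries. Calls needed an adjusted p under 0.05 (Benjamini-Hochberg, 17699 genes). The scripts were tested on simulated data. The alternatives were DESeq2 1.42.0 (size factors, Wald test), library totals, limma-voom (limma 3.58.1), other filters, gene exclusions, fits on fewer groups, robust estimation off, a replicate block and leaving out each library. Totals of 58932759 to 72594085 counts limit precision only for low genes. Ratios within a library used exact permutation tests. RPKM was computed here from exon lengths.

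The 10 genes, the pathway lists and the markers were chosen with earlier results of these data known. All 10 genes are named in the main comparisons. Of each list, up to 4 called genes with the smallest p per comparison could be named, and not all of them are; other genes are named beside a count or a family they belong to, after their values were seen. 1 gene of the calcium list is not reported here, and its list was counted without it. The likeness to Rcan1 names the 5 nearest genes.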

Additional observations from a re-analysis of the deposited data

Results flagged for a closer look

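The TAC effect differed between genotypes by the interaction test (TAC change in T497A minus that in WT, log2 scale, adjusted p under 0.05) for 5 of the 10 genes: Rcan1 (-0.79), Nfatc2 (0.56), Nfatc4 (-0.85), Mef2a (0.48) and Mef2d (0.53). Of the 59 genes tested from the pathway lists, 23 met the same test, where 29.5% of all genes tested did. Among calcineurin anchors and modulators these were Cabin1 (-0.32), Akap5 (1.9), Akap6 (0.51), Lmcd1 (0.53), Cib1 (-0.63) and Ppia (-0.4). Among calcium genes they were Trpc1 (0.4), Trpc6 (-2.27), Cacna1c (0.34) and Itpr2 (-0.5). Among NFAT kinases and partners they were Dyrk2 (-0.4), Mapk9 (0.34), Mapk14 (0.31) and Gata4 (0.5). Among MEF2 regulators they were Hdac4 (0.55), Hdac5 (0.5), Camk2g (0.27) and Myocd (0.63). Among reported targets they were Nppb (1.31), Xirp2 (-0.54), Ckm (0.81), Slc2a4 (0.7) and Nr4a1 (2.44). Of the 10 genes, Nfatc2, Mef2a and Mef2d were no longer called in the interaction on library totals alone (0.26, 0.19 and 0.23), while Rcan1 (-1.10) and Nfatc4 (-1.15) were. Of the 23 pathway genes, 10 were still called in the same direction on library totals and 13 were not. These 13 were Akap5 (1.63), Akap6 (0.21), Lmcd1 (0.22), Trpc1 (0.10), Cacna1c (0.037), Mapk9 (0.046), Mapk14 (0.013), Gata4 (0.20), Hdac4 (0.25), Hdac5 (0.20), Camk2g (-0.024), Myocd (0.34) and Nr4a1 (2.13). On that scale the higher calls stood at 0 in each list but the reported targets, which had 3. Of all 17699 genes tested, 6869 were called in the interaction on library totals, in either direction. The interaction uses T497A sham, whose libraries differ from the rest in Xist and Ddx3y, so the part of genotype cannot be told apart from that difference.

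T497A sham was the lowest group for Nppb, Lmcd1 and Akap5, and for others of these genes. Nppb averaged 375 CPM in T497A TAC, 524.8 CPM in WT TAC, 36 CPM in T497A sham and 125.3 CPM in WT sham. Lmcd1 averaged 42.1 CPM in T497A TAC, 40.9 CPM in WT TAC, 29.9 CPM in T497A sham and 41.8 CPM in WT sham. Akap5 averaged 8.47 CPM in T497A TAC, 7.54 CPM in WT TAC, 1.52 CPM in T497A sham and 5.09 CPM in WT sham. Camk2g, Myocd, Trpc1 and Mapk14 lost the interaction call in 6, 11, 7 and 4 of 22 alternatives. Trpc1 lost it without T497A TAC 1 (0.36), T497A sham 2 (0.37), T497A sham 3 (0.401), WT sham 2 (0.395) or WT sham 3 (0.38), and Mapk14 without T497A TAC 1 (0.25), WT TAC 1 (0.29) or WT sham 1 (0.29). Camk2g lost it without T497A TAC 1 (0.24), T497A sham 1 (0.25), T497A sham 3 (0.27) or WT sham 1 (0.25). Myocd lost it without T497A TAC 2 (0.64), T497A TAC 3 (0.55), WT TAC 1 (0.67), WT TAC 2 (0.49), T497A sham 1 (0.53), T497A sham 2 (0.63), WT sham 1 (0.66), WT sham 2 (0.65) or WT sham 3 (0.61). Trpc6 lost it without T497A TAC 1 (-2.12), WT TAC 1 (-1.96), T497A sham 1 (-2.14), T497A sham 2 (-2.11), WT sham 2 (-1.92) or WT sham 3 (-2.12). Nr4a1 averaged 104.3 CPM in T497A TAC, 31.14 CPM in WT TAC, 30.88 CPM in T497A sham and 50.07 CPM in WT sham. Its libraries ran from 15.56 to 77.05 CPM in WT sham and from 18.67 to 46.82 CPM in WT TAC. The interaction calls of Nr4a1 (adjusted p = 0.0443), Akap5 (adjusted p = 0.0419) and Cabin1 (adjusted p = 0.0376) were near the threshold. For these genes, library totals were the only alternative examined.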

How the results depend on the processing

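Over 24 alternatives the rise of Rcan1 in WT stayed called, with log2 fold changes of 1.29 to 1.79 and adjusted p of 1.28e-34 to 6.07e-05. For T497A TAC against T497A sham, 1 gene of the 10 was called, and the count was 2 with DESeq2 size factors, 2 with the DESeq2 Wald test, 3 with limma-voom and 2 where genes needed 1 CPM in 6 libraries, with Ppp3cb the added gene with DESeq2 size factors. The interaction count of 5 was 6 with DESeq2 size factors, the DESeq2 Wald test and limma-voom. With library totals it was 3, where 6869 of the 17699 genes tested were called. The count for T497A TAC against WT sham was then 1, where 1932 of all genes were called. Among genes called in at least 1 of the fits set side by side, library totals reversed the sign of Ppp3ca (0.27) and Nfatc3 (0.29) in WT TAC against WT sham, of Ppp3ca (-0.18), Ppp3cb (-0.025), Nfatc1 (-0.21), Nfatc2 (-0.037), Nfatc3 (-0.24) and Gata4 (-0.012) in T497A TAC against WT TAC, of Camk2g in the interaction (-0.024) and of Nfatc1 in WT TAC against T497A sham (0.20). Genes called in neither fit also changed sign with library totals, in the interaction Ppp3ca (-0.12), Ppp3cb (-0.06), Nfatc3 (-0.24) and Mef2c (-0.28). That setting has no scaling factor, which moves all genes by the shift of their median. Leaving out 1 library each gave counts of 6 to 6 in WT, 1 to 2 in T497A, 4 to 6 for T497A TAC against WT TAC, 0 to 1 for the sham groups, 4 to 5 for the interaction, 0 to 3 for T497A TAC against WT sham and 5 to 5 for WT TAC against T497A sham. Where a call was lost without a library, the cause was not tested. Of the values of single genes under alternatives, 3901 stayed on their side of the threshold and, if uncalled, within 1 SE (32 of these, called in neither fit, changed sign). With the sign kept, 165 lost a call and 28 gained one. A further 14 were uncalled and moved by more than 1 SE (9 of these changed sign). The remaining 10 changed sign with a call in at least 1 of the fits set side by side, and lost or gained calls are among them. Same-numbered libraries did not deviate together (r of -0.113 to 0.0742 over 18 pairs, beside -0.122 to 0.11 over 36 other pairs), and 3 of 12 libraries correlated best with their own number, so the numbers were not taken as pairs. With the replicate block the counts were 6, 1, 5, 1, 5, 2 and 5 in the order of the leave-one-out counts. Counts of 265 in the thinnest library limit Nfatc4.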

Other observations

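Between the sham groups, 3 of the 59 pathway genes tested were called, all lower in T497A, a share near the 5.79% called among all genes tested. On library totals alone 1 calcium gene and 1 reported target were called higher, where 1105 of the 17699 genes tested were called in either direction. Lmcd1 differed by -0.48 ± 0.09 and Nppb by -1.80 ± 0.24. Gata4 differed by -0.26 ± 0.06 (adjusted p = 0.0224), a call lost without T497A sham 1 (-0.21, adjusted p = 0.0861), T497A sham 2 (-0.26, adjusted p = 0.0526), WT sham 1 (-0.25, adjusted p = 0.0861), WT sham 2 (-0.27, adjusted p = 0.0661) or WT sham 3 (-0.26, adjusted p = 0.0716). Genotype and sex-linked transcripts cannot be told apart in this comparison.

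Against WT sham, a comparison that leaves out T497A sham and shares its libraries with others, 4 of 9 reported targets were called higher in T497A TAC and 1 lower, where 6.12% of all genes tested were higher and 3.9% lower. Genotype and surgery change together in that comparison and cannot be told apart. The lists were chosen with earlier results of these data known, so the list counts are a description with no test. With single libraries left out, 3 to 4 of the targets were higher and 0 to 2 lower. In the other lists 0 were higher and 1 lower of 14 calcineurin anchors and modulators, 2 and 0 of 12 calcium genes, 0 and 2 of 14 NFAT kinases and partners, and 1 and 0 of 10 MEF2 regulators. Of the targets, Acta1 (2.51 ± 0.33), Nppb (1.58 ± 0.24), Myh7 (2.37 ± 0.49, named after its values were seen and a close copy of Myh6) and Xirp2 (0.56 ± 0.09) were higher in T497A TAC and Ppargc1a was lower (-0.69 ± 0.14, lost without T497A TAC 2 at -0.67, adjusted p = 0.0527). Of the MEF2 regulators, Mapk7 was the gene called (0.68 ± 0.12).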
